A study of Mus musculus with 12 samples.

Results

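The 5 genes of the neurofilament family, Nefl, Nefm, Nefh, Ina and Prph, were followed through 12 mouse retina libraries. The members were chosen by symbol from a table of 35976 genes, of which 24484 had at least 1 read in some library, and all 5 were found. The family itself was proposed with levels and fold changes of these same libraries already known, so these measured values count as used in the choice. Fold changes and adjusted p-values below therefore only place each gene in a fit over all genes, and nothing is supported with them.

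The retinas came from mice labelled wild type (WT, strain C57BL/6) or Caspase1 knockout (Casp1 KO), kept in normoxia or taken 3 days after oxygen-induced retinopathy (OIR), with 3 libraries in each of the 4 groups. In OIR, pups breathe high oxygen, part of the retinal capillary bed is lost, and the tissue becomes hypoxic once the pups are back in room air. The C57BL/6 pups were in 75% oxygen from postnatal day 7 to 12, and retinas were collected at day 15. No age, oxygen level or allele is given for the pups labelled Casp1 KO, and no number of animals per library, so p-values measure only the spread between libraries. Total counts per library ran from 3391203 to 5657873 except in 1 WT normoxia library, which held 22815830. Reads on Casp1 went against the labels, with 7 in the 6 libraries labelled WT together and 126 in the 6 labelled Casp1 KO, so the genotypes are given below only as labels. All libraries had the rod genes of a retina, with a summed level of 43366 to 51932 CPM (counts scaled to the library total) over 10 rod markers. WT OIR replicate 3 stood apart from its group: 10 transcripts that stay largely in the nucleus summed to 6123 CPM there and to 12610 and 13597 CPM in the other two libraries. In the other groups that sum was 10393 to 10876 CPM in WT normoxia, 11277 to 12339 CPM in Casp1 KO normoxia and 7117 to 7934 CPM in Casp1 KO OIR. Without Xist, the transcript of the inactive X chromosome and 1 of the 10, the sums in WT OIR were 6003 CPM in replicate 3 and 12176 and 13594 CPM in the others. Xist itself was at 434, 2.95 and 120 CPM in WT OIR replicates 1, 2 and 3 and at 340 to 520 CPM in every library of the other groups. WT OIR replicates 2 and 3 were thus both below all libraries of the other groups in this transcript. Its log2 fold change in WT OIR against WT normoxia was -1.42 (adjusted p = 1.15e-24 by edgeR's quasi-likelihood test). The labels give no sex of the pups, and the part of sex make-up in the WT OIR values was not tested.

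Neurofilaments are the intermediate filaments of mature neurons. They fill large axons, set axon calibre and are moved slowly along microtubules by motor proteins. The light chain encoded by Nefl forms the core of the filament. The medium and heavy chains, encoded by Nefm and Nefh, add long tails that are phosphorylated in the axon, and alpha-internexin (Ina) joins them as a further subunit in neurons of the central nervous system. Prph encodes peripherin, a filament protein best known from peripheral neurons, and is a different gene from Prph2, which encodes the rod disc protein peripherin-2. In the retina, neurofilaments are prominent in retinal ganglion cells, whose axons form the optic nerve, and in horizontal cells. Neurofilament light chain released from damaged axons is used as a fluid marker of axonal injury.

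In the GENCODE annotation of GRCm38, the 4 exons of Nefl span positions 68083863 to 68089095 of chromosome 14, plus strand. Nefm is its neighbour on the minus strand, annotated from 68082590 to 68124846 because 1 of its 2 transcripts runs through Nefl. The RefSeq record of Nefm spans only 68119545 to 68125004, which leaves 30449 bases between the genes. Nefh has 4 exons between 4938754 and 4948064 of chromosome 11, minus strand. Ina has 3 exons between 47014698 and 47025327 of chromosome 19, plus strand. The longest Prph transcript has 8 exons, and the gene covers 99055174 to 99058978 of chromosome 15, plus strand. Nefl and Nefm share 1108 exon bases on opposite strands, and Ina shares 456 with Nt5c2, so these counts carry some uncertainty where strand was not used in counting. None of the shared bases lie in the last 500 bases of the Nefl, Nefm or Ina transcripts, the end from which the 3' libraries draw their reads.

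Promoters were at hand for only 2 members, Ina and Prph, and both are shown. None was at hand for Nefl, Nefm or Nefh, so the windows are not set against levels or fold changes. Both run from 250 bases before to 50 bases after the start used in the RefSeq promoter table, on the plus strand of GRCm38.p6, at chr19:47014431-47014730 for Ina and chr15:99054924-99055223 for Prph. The Prph window lies at the start that GENCODE gives, while the outermost RefSeq start of that gene is upstream, at 99053579. Capitals mark matches on either strand to TATAAA (the TATA box), GGGCGG (the GC box bound by Sp1) and ACGTG (the core of the hypoxia response element).
Ina: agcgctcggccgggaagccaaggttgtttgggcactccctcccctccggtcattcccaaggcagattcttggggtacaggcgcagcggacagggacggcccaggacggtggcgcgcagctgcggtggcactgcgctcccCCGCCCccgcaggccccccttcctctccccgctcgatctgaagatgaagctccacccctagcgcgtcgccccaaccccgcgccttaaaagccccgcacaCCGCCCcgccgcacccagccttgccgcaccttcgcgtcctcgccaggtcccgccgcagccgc
Prph: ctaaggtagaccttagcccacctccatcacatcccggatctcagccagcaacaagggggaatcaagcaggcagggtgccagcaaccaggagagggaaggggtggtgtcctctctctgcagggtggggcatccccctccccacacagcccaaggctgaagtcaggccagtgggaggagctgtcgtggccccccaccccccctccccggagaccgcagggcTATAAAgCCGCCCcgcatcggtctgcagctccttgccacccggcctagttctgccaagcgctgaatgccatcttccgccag
The Ina window held no TATAAA and 2 GC boxes, and the Prph window held 1 TATAAA followed closely by 1 GC box. ACGTG was in neither window. Among 32851 promoters of the same length, 13.6% held TATAAA, 35.7% GGGCGG and 19.6% ACGTG.

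In normoxia the neurofilament genes were among the abundant mRNAs of the retina, and their levels fell into a clear order, Nefl above Nefm, Nefm above Nefh, Nefh above Ina, and Prph far below. Reads of 3' libraries come from the transcript end, so these levels are compared without dividing by gene length. Levels are CPM on the TMM scale (edgeR's trimmed-mean scaling of the library totals), and each value is 1 library. In WT normoxia Nefl stood at 1342, 1401 and 1214 CPM, which made it the 49th to 59th most abundant gene. Its partner Nefm was at 641, 724 and 705 CPM in the same libraries. Nefh was at 356, 405 and 384 CPM and Ina at 269, 266 and 257 CPM. No 2 neighbours in this order overlapped. Prph reached only 9.24, 4.09 and 6.52 CPM, from 30 to 92 reads, a level at which counting error is large. The order was the same in Casp1 KO normoxia, where Nefl stood at 1493, 1445 and 1372 CPM.

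In libraries labelled WT, the 3 chains that build the filament stood at 45.9% to 53.1% of their normoxic level after OIR. Nefl, Nefm and Nefh fell by 0.92, 1.08 and 1.14 on the log2 scale, Ina fell less, and Prph did not pass the test. For Nefl the WT OIR libraries held 787, 724 and 591 CPM, a mean of 701 ± 100 (SD, n = 3) against 1319 ± 95.9 in normoxia, or 53.1%. The highest OIR library was at 64.9% of the lowest normoxic one. Nefm was at 335, 371 and 283 CPM, 47.8% of its normoxic mean, and Nefh at 194, 180 and 152 CPM, 45.9% of it. In all 3 genes WT OIR replicate 3 was the lowest library, and the groups did not overlap.

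The fit by edgeR's quasi-likelihood test with Benjamini-Hochberg adjustment over 22853 genes gave Nefl a standard error of 0.114 and an adjusted p of 4.59e-13. For Nefm the error was 0.122 and the adjusted p 1.30e-15. Nefh had an error of 0.129 and an adjusted p of 2.32e-15. By p these genes ranked 26th, 16th and 18th. By size alone they were not at the end of the list, since they stood 2709th to 3115th when all genes were ordered from the lowest fold change. That order holds every gene with at least 1 count, also those with few reads, and only 524 genes were called lower. Without WT OIR replicate 3 the changes were -0.81 for Nefl, -0.98 for Nefm and -1.04 for Nefh, all still called. Without WT OIR replicate 2 they were -0.94, -1.17 and -1.15, again all called. Bulk RNA cannot tell fewer cells that make neurofilaments from less neurofilament mRNA per cell.

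Ina was at 192, 192 and 164 CPM in WT OIR, 69.2% of normoxia, again without overlap. Its log2 fold change was -0.54 ± 0.132 (SE), with an adjusted p of 0.00236 by edgeR. Prph was at 5.63, 5.34 and 4.54 CPM, inside the range of its normoxic libraries. Its log2 fold change of -0.34 had a 95% interval from -1.28 to 0.60 and an adjusted p of 0.778 by edgeR, so a change as large as that of Nefh was not excluded at this depth. Thus 4 of 5 members were lower past the threshold of 0.05 and 4 of 5 did not overlap between the groups. Over all genes 2.29% were called lower and 8.16% were lower without overlap, and nothing is read from the contrast, because the family was chosen with it known. The median log2 fold change of the 5 was -0.92, and that of all genes was 0.04.

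**Figure D1:**
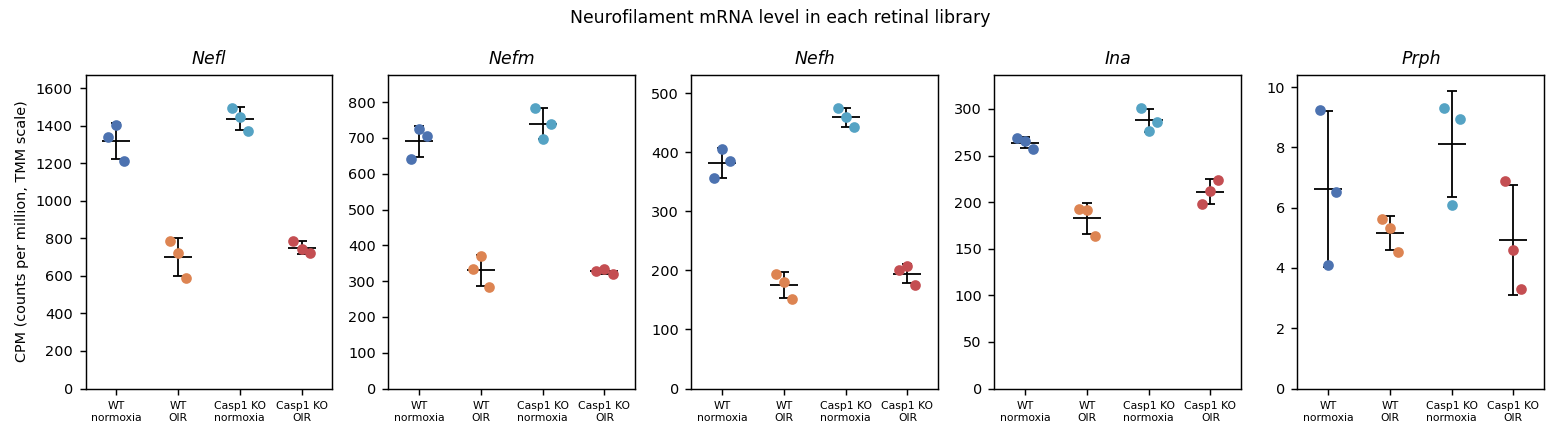
Level of each neurofilament gene in CPM (y axes, from 0, on a scale of their own for each gene) in the 12 libraries by group (x axes). Points are libraries, horizontal bars are group means and whiskers are 1 SD (n = 3); Nefl, Nefm, Nefh and Ina are lower in all OIR libraries than in all normoxia libraries of the same label, and the Prph groups overlap.

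The libraries labelled Casp1 KO showed the same pattern with less spread. Nefl stood at 786, 742 and 724 CPM in OIR, 52.3% of normoxia. Nefm went from 783, 698 and 739 CPM in normoxia to 328, 335 and 321 CPM in OIR, 44.3% of the normoxic mean. Nefh went from 474, 460 and 442 CPM to 201, 207 and 176 CPM, or 42.4%. For these 3 chains every OIR library was below 60% of the lowest normoxic one.

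On the log2 scale the changes were -0.92 ± 0.0677 (SE) for Nefl, -1.16 ± 0.0777 for Nefm and -1.22 ± 0.0860 for Nefh, with adjusted p of 8.33e-39, 1.03e-46 and 2.03e-42 by edgeR. They ranked 7th, 4th and 6th by p among 22387 genes. Ina went from 301, 277 and 286 CPM to 198, 212 and 224 CPM, 73.4% of normoxia, with a log2 fold change of -0.43 ± 0.0902 and an adjusted p of 0.000128 by edgeR. Prph was at 9.30, 6.10 and 8.94 CPM in normoxia and at 6.89, 4.60 and 3.29 CPM in OIR. Its groups overlapped, and its log2 fold change of -0.72 (95% interval -1.58 to 0.15) had an adjusted p of 0.496 by edgeR. The same 4 of 5 members were lower past the threshold, beside 2.03% of all genes, and did not overlap, beside 8.58% of all genes. The 2 OIR comparisons share no library.

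Whether the fall with OIR differed between the labels was asked by an interaction term over all 12 libraries. None of the 5 genes passed that test in edgeR, where 1.13% of 24484 genes did, 0 of 5 were under an unadjusted p of 0.05, and the DESeq2 test also called none. The difference (Casp1 KO minus WT) was -0.02 for Nefl, with a 95% interval from -0.28 to 0.23 on the log2 scale. It was -0.11 (-0.39 to 0.17) for Nefm, -0.11 (-0.42 to 0.19) for Nefh and 0.09 (-0.23 to 0.40) for Ina. For Prph the interval ran from -1.70 to 0.90, which leaves differences of either sign possible.

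**Figure D2:**
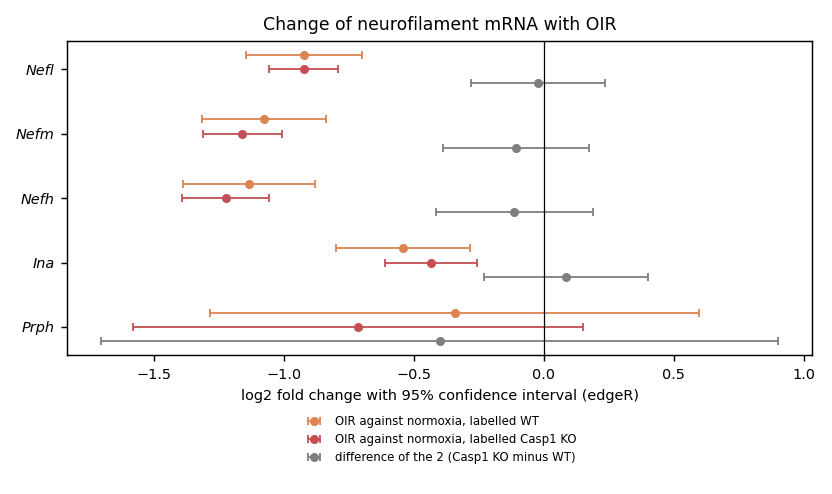
Log2 fold change of each neurofilament gene with OIR in libraries labelled WT and Casp1 KO, and the difference of the 2 changes (x axis; y axis, genes). Points are edgeR estimates and bars are 95% confidence intervals; the intervals of Nefl, Nefm, Nefh and Ina lie below 0 in both labels, and all intervals of the difference include 0.

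Between the labels within a condition, differences were small for all members but Prph, whose intervals were wide. In normoxia Nefh was 20.2% higher in libraries labelled Casp1 KO, at 459 ± 16.1 CPM against 382 ± 24.9 CPM (SD, n = 3). Its log2 difference was 0.27 ± 0.0773 (SE), with an adjusted p of 0.0481 by edgeR, close to the threshold, and the call was lost when any 1 library but WT normoxia replicate 2 was left out (adjusted p from 0.104 to 0.256). It was the 1 member called, beside 0.476% of all genes called higher. The other 4 log2 differences lay between 0.11 and 0.34. Ina did not overlap either, as its highest WT library was at 97.2% of the lowest one labelled Casp1 KO, beside 5.91% of all genes that were higher without overlap.

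In OIR no member was called between the labels, where edgeR called 0.575% of all genes, 0 of 5 had an unadjusted p under 0.05, and the DESeq2 test, which left Prph without an adjusted p, also called none. The log2 differences ran from -0.07 for Prph to 0.21 for Ina. For Nefm, the OIR libraries were at 330 ± 44.3 CPM and 328 ± 7.02 CPM, a log2 difference of -0.01 with a 95% interval from -0.26 to 0.24. Ina was the 1 member without overlap, at most 192 CPM in WT OIR and at least 198 CPM in Casp1 KO OIR, beside 5.41% of all genes.

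The make-up of the neurofilament reads shifted with OIR toward Ina. The share of a gene among the reads of all 5 does not depend on how libraries are scaled, and it was described without a test. Nefl kept the same place, with a mean of 49.5% in WT normoxia, 50.2% in WT OIR, 49.0% in Casp1 KO normoxia and 50.4% in Casp1 KO OIR, and its groups overlapped. The share of Ina was 9.93% ± 0.400 in WT normoxia and 13.2% ± 0.511 in WT OIR, and 9.82% ± 0.222 and 14.2% ± 1.24 in the groups labelled Casp1 KO (SD, n = 3). Its lowest OIR library, at 12.7%, was above its highest normoxic one, at 10.3%. Nefh lost share, from 14.3% to 12.6% in WT and from 15.7% to 13.1% in Casp1 KO, without overlap in either. Nefm went from 25.9% to 23.7% in WT, where the groups overlapped, and from 25.2% to 22.02% in Casp1 KO, where they did not.

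Put per 100 reads of Nefl, the most abundant member, Ina held 20.1 ± 1.10 reads in WT normoxia and 26.2 ± 1.64 in WT OIR. With the Casp1 KO label it held 20.04 ± 0.840 and 28.2 ± 2.94. Nefh went the other way, from 29.0 to 25.1 reads per 100 of Nefl in WT and from 31.9 to 25.9 in Casp1 KO. Prph held under 1 read per 100 of Nefl in every library, at most 0.876.

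**Figure D3:**
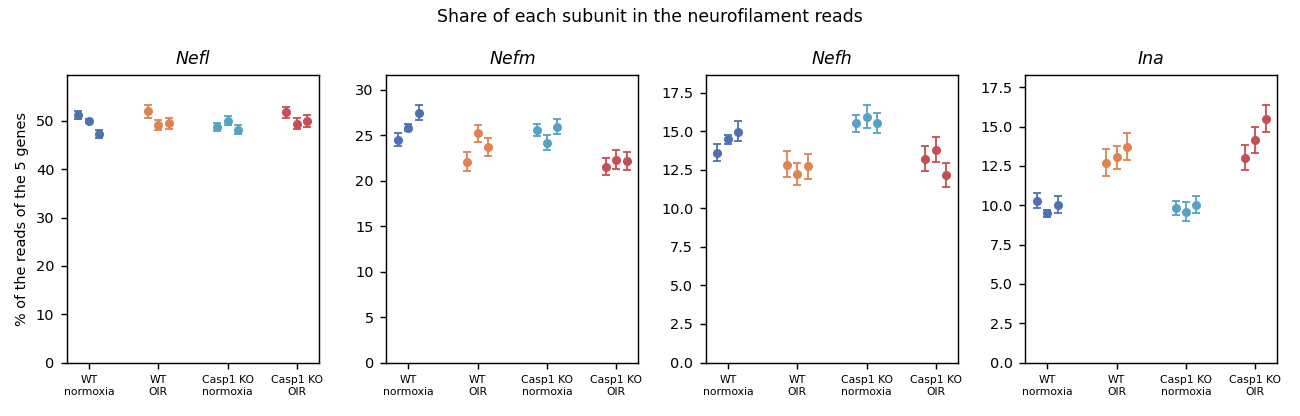
Share of Nefl, Nefm, Nefh and Ina in the reads of the 5 neurofilament genes, in percent (y axes, from 0), for each library by group (x axes). Points are libraries and bars are exact Clopper-Pearson 95% intervals, which cover counting error only; the Ina share is higher in all OIR libraries, the Nefh share is lower in OIR within each label, and the Nefl share is near 50% throughout.

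Markers of the ganglion cells themselves were lower with OIR too, by less in the median and in the summed level. The neurofilament family was chosen with its fold changes known, so nothing is read from that contrast. Some single markers fell as far as a neurofilament chain, such as Nrn1 in Casp1 KO, and others did not, such as Rbpms. A list of 20 ganglion cell genes held 8 called lower in WT and 7 in Casp1 KO, beside 2.29% and 2.03% of all genes. None was called higher, and 6 were lower in both. The median log2 fold change of the list was -0.51 and -0.53, where the median of all genes was 0.04 and -0.002. Thy1, a surface glycoprotein of ganglion cells, changed by -0.96 in WT and -0.66 in Casp1 KO. Nrn1 (neuritin, a factor for neurite growth) changed by -0.91 and -1.48, Slc17a6, the vesicular glutamate transporter of ganglion cells, by -0.62 and -0.85, and Atp1b1, a sodium pump subunit and the most abundant gene of the list, by -0.79 and -0.70. Sncg, gamma-synuclein, changed by -0.58 and -0.90. The RNA-binding protein gene Rbpms, a widely used ganglion cell marker, was not called, at -0.25 and -0.16 (adjusted p = 0.516 and 0.580 by edgeR).

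The summed CPM of the ganglion cell list in OIR was 66.6% of normoxia in WT and 66.2% in Casp1 KO, while that of the 5 neurofilament genes was 52.4% and 50.8%. Neurofilament reads amounted to 120% ± 6.70 of the marker reads in WT normoxia and to 94.3% ± 9.53 in WT OIR (SD, n = 3). In libraries labelled Casp1 KO they amounted to 127% ± 3.39 and 97.7% ± 4.54. The groups did not overlap, with 112.9% as the lowest normoxic and 105.0% as the highest OIR value in WT, and 123.8% and 102.1% in Casp1 KO. Ina and Prph held shares of the marker reads that moved less in proportion than those of the other 3 chains did. Ina amounted to 11.9% of the marker reads in WT normoxia, 12.4% in WT OIR, 12.5% in Casp1 KO normoxia and 13.8% in Casp1 KO OIR, without overlap in the last pair. Prph amounted to 0.300%, 0.351%, 0.351% and 0.325% in the same order, and its groups overlapped. These ratios are descriptions of the libraries and were not tested.

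**Figure D4:**
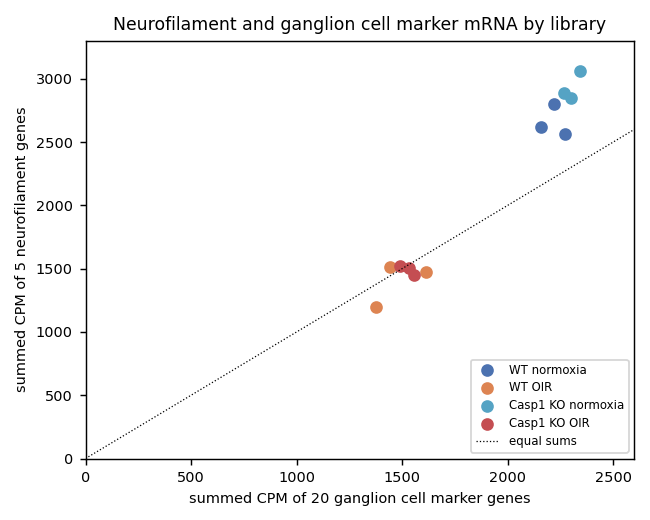
Summed CPM of the 5 neurofilament genes (y axis) against summed CPM of 20 ganglion cell marker genes (x axis). Each point is 1 of the 12 libraries, the dotted line marks equal sums, and the normoxia libraries lie above that line while the OIR libraries lie near it at lower levels of both sums.

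Lists of other retinal cells held calls in both directions. Of all genes, 2.29% were called lower and 1.58% higher in WT, and 2.03% and 2.61% in Casp1 KO. Of 9 horizontal cell genes tested, 2 were called lower in WT, and 1 lower and 1 higher in Casp1 KO, with medians of -0.25 and 0.11. Calb1 (calbindin) was lower in both labels (-0.85 and -0.54), and the homeobox gene Prox1 was higher in Casp1 KO (0.50) and not called in WT (-0.25). The 10 horizontal cell genes in the table summed to between 797 and 843 CPM in WT normoxia and between 628 and 686 CPM in WT OIR. With the Casp1 KO label they summed to between 582 and 614 CPM in normoxia and between 636 and 670 CPM in OIR. Amacrine genes, which include the GABA synthesis enzyme Gad1 (-0.89 in WT), held 4 of 12 called lower in WT and none in Casp1 KO, where 1 was called higher. Bipolar cell genes held 1 of 10 lower in WT and 1 of 10 higher in Casp1 KO. Muller glia genes held 3 of 10 called lower in WT, and 6 higher and 1 lower in Casp1 KO. The part of these cells in the neurofilament values was not tested.

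Myelin is absent from the mouse retina and present in the optic nerve. The myelin genes summed to 272 to 331 CPM in WT normoxia but to 75.1 to 93.3 CPM in WT OIR. There 6 of 10 were called lower, among them Mobp at -3.71, beside 2.29% of all genes. In libraries labelled Casp1 KO the myelin sum was 52.1 to 65.4 CPM in normoxia and 62.9 to 77.3 CPM in OIR, Mog, Cldn11 and Opalin were at 0 in all 3 normoxic libraries, and none of 9 genes tested was called. The part of myelinated tissue in the neurofilament values was not tested. Schwann cell genes, which would accompany peripheral nerve, summed to 117 to 126 CPM in WT normoxia and to 44.2 to 57.8 CPM in the other groups.

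Some filament genes of other cells were higher with OIR. Of 15 other intermediate filament genes, 3 were called higher in WT and 5 in Casp1 KO, 12 and 10 not called, and none called lower in either, beside 1.58% and 2.61% of all genes called higher. Gfap, the glial filament of astrocytes and reactive Muller cells, went from 25.3 ± 5.09 to 79.6 ± 10.6 CPM in WT and from 17.4 ± 6.05 to 86.3 ± 4.31 CPM in Casp1 KO (SD, n = 3). Its log2 fold changes were 1.62 and 2.31. Vim (vimentin), a filament of Muller cells and vessels, went from 114 to 225 CPM in WT and from 95.3 to 235 CPM in Casp1 KO. Nes (nestin) was called in WT at 1.58, and Krt18 (keratin 18) and Bfsp2, a lens filament gene, in Casp1 KO at 0.77 and 1.54. Reads of the 15 genes summed to 417 to 440 CPM in WT normoxia and 617 to 695 CPM in WT OIR, while the neurofilament sum was 2567 to 2800 CPM and 1194 to 1515 CPM in the same groups.

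Genes that move, link or break down neurofilaments were lower in part. Of 18 such genes, 5 were called lower and 1 higher in WT, and 6 lower in Casp1 KO, with 4 lower in both. The shares over all genes were 2.29% lower and 1.58% higher in WT, and 2.03% and 2.61% in Casp1 KO. Kif5a and Kif5c, heavy chains of the kinesin that carries neurofilaments outward, changed by -0.71 and -0.82 in WT and by -0.66 and -0.62 in Casp1 KO. Uchl1, a neuronal enzyme of ubiquitin turnover, changed by -0.94 and -0.61. Myo5a, a myosin that binds neurofilaments, changed by -0.80 in WT, and Dst, a linker of filaments to the cytoskeleton, by -0.44 in Casp1 KO. Of 16 genes for kinases and phosphatases that act on the neurofilament tails, 2 were called lower in WT, Mapk10 (the neuronal JNK3, -0.78) and Cdk5r1 (the p35 activator of Cdk5, -0.42). In Casp1 KO, Mapk10 was called lower (-0.49) and Ppp2r2b, a neuronal subunit of phosphatase 2A, higher (0.28). The medians of the transport list were -0.37 in WT and -0.25 in Casp1 KO, and those of the kinase list -0.07 and -0.03.

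The microtubule and membrane skeleton of the axon held 9 of 24 genes called lower in WT and 8 lower and 1 higher in Casp1 KO, 6 of them lower in both. Over all genes 2.29% were called lower in WT, and 2.03% lower and 2.61% higher in Casp1 KO. Stmn3, a microtubule regulator of the stathmin family, went from 447 ± 33.5 to 234 ± 14.8 CPM in WT and from 428 ± 6.79 to 249 ± 26.2 CPM in Casp1 KO (SD, n = 3). The tubulin genes Tubb2a and Tubb4a changed by -0.76 and -0.79 in WT, and Map1a, a microtubule-associated protein of dendrites and axons, by -0.67 in WT and -0.51 in Casp1 KO. The medians of this list were -0.35 in WT and -0.15 in Casp1 KO. Its lowest values were -1.26 and -1.51, beyond those of Nefh (-1.14 and -1.22), so single genes of the list changed as much as the triplet.

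**Figure D5:**
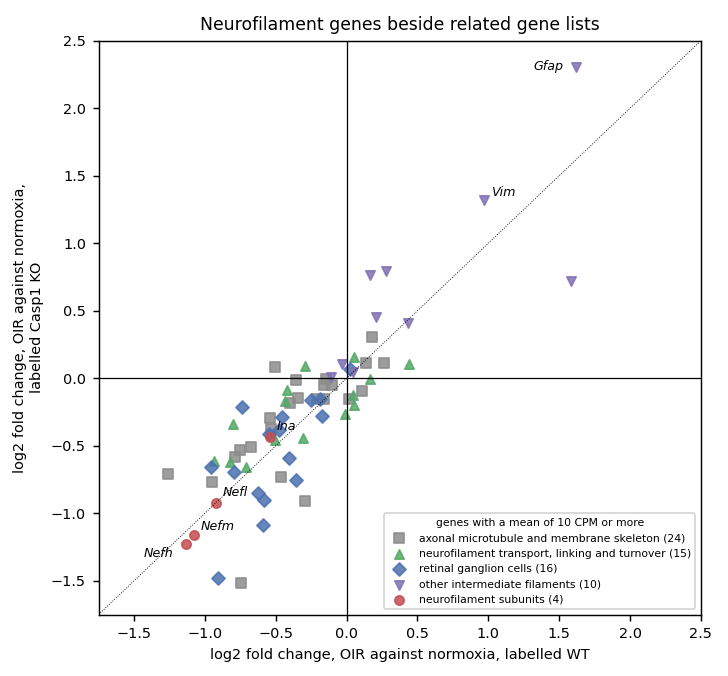
Log2 fold change with OIR in libraries labelled WT (x axis) and Casp1 KO (y axis) for genes with a mean of 10 CPM or more in 5 lists, with the number of genes plotted in the key. The dotted line marks equal change; Nefl, Nefm, Nefh and Ina lie close to it at the lower left, while Vim and Gfap lie at the upper right.

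The genes whose levels ran closest to the neurofilament triplet were taken from a ranking by likeness. Likeness was the Pearson correlation across the 12 libraries of log2(CPM + 1) with the mean z-score of Nefl, Nefm and Nefh, over 9424 genes with a mean of at least 10 CPM. These libraries share the 4 groups, so the values describe a common pattern of groups, and no p is given. The highest were Cplx1 (complexin 1, of synaptic vesicle release) at 0.979, Kif5a at 0.972, Stmn3 at 0.971, Cend1 at 0.970, Nrip3 at 0.969 and Calb2 (calretinin, of ganglion and amacrine cells) at 0.966, followed by Rph3a, Lynx1, Atp1b1 and Ubash3b at 0.955 or more. Calb2 went from 657 to 338 CPM in WT and from 724 to 330 CPM in Casp1 KO. At the other end stood S100a6 at -0.975, Stat3 at -0.966, Crym at -0.954, Vim at -0.953 and the metallothionein gene Mt1 at -0.951.

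Among themselves, Nefl, Nefm and Nefh correlated at 0.980 to 0.989 over the 12 libraries, Ina with them at 0.933 to 0.952, and Prph with the other 4 at 0.529 to 0.6003. With the group means subtracted the triplet still correlated at 0.589 to 0.775, and Prph with the others at -0.034 to 0.187. Then Eif3a at 0.967, Rpgrip1 at 0.955, Dapl1 at 0.953, Qsox1 at 0.951 and Snhg9 at 0.947 were closest to the triplet, and none of these was among the 10 closest over all libraries. WT OIR replicate 3, the lowest in all 3 chains, takes part in these values.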

How the data were processed

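RNA of 12 mouse retina samples had been made into QuantSeq 3' libraries and sequenced in 75-base reads. Per the labels and the study's methods, the authors aligned the reads to mm10 with STAR (2.7.5a in the submitters' processing notes) and deposited counts of reads per gene made with HTSeq (0.6.1), as whole numbers without normalization. The annotation and the strand setting are not given in the sources used here. Groups were taken from the labels, 0 count columns were left without a sample, and 0 entries named no gene.

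Counts were fitted in R 4.3.3 with edgeR 4.0.16 (TMM, glmQLFit, glmQLFTest, genes with at least 1 count, prior count 0.125, Benjamini-Hochberg adjustment over all genes tested, threshold 0.05). Comparisons of 2 groups used their 6 libraries and the interaction used all 12. The script was tested on simulated data. Standard errors were worked out from each fold change and its F statistic. Intervals of read shares are exact Clopper-Pearson 95% intervals, which cover counting error only, as no molecular identifiers are described. Positions come from GENCODE vM21 (GRCm38) and promoters from RefSeq (GRCm38.p6), which held 2 of the 5 members.

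The members, the gene lists and the tests were chosen with earlier results of these data known. Named were all 5 members, from each list at most 4 called genes per comparison with the smallest p and its most abundant genes, and the genes most like the triplet (10 highest, 5 lowest, and 5 with group means subtracted). Rbpms, Atf3, Cntn2 and Sptbn4 were added after their values were seen. Some listed genes are not reported here. Alternatives were DESeq2 (1.42.0) size factors or test, library size alone, 2 other filters, a replicate block, all 12 libraries in 1 fit, a prior count of 2, each library left out, thinning of the deepest library, and scaling without nuclear transcripts.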

Additional observations from a re-analysis of the deposited data

Results flagged for a closer look

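A pair of genes of the axonal skeleton list changed with OIR by different amounts in the 2 labels, past the test of the difference itself (interaction term, edgeR over 24484 genes). Gap43, a growth cone protein, had a log2 fold change of -0.29 in WT, which did not pass the test, and of -0.91 in Casp1 KO, a difference of -0.64 ± 0.179 (SE) with an adjusted p of 0.0368. Mapt, the microtubule-associated protein tau, had a log2 fold change of -0.50 in WT and of 0.08 in Casp1 KO, which did not pass the test, a difference of 0.56 ± 0.157 with an adjusted p of 0.0347. Genes of other lists named above also passed it, among them Prox1, with a difference (Casp1 KO minus WT) of 0.72 (adjusted p = 0.00231). Gad1 (0.77, adjusted p = 0.0214), Mobp (3.57, 0.0292) and Cldn11 (8.24, 0.00112) did so too. Mobp and Cldn11 were at the floor in Casp1 KO. Mobp had 0 to 6 reads per library in both Casp1 KO groups, and Cldn11 had 0 in normoxia and 1 to 4 in OIR. Their differences thus rest on the WT libraries, where Mobp went from 33.6 to 2.77 CPM and Cldn11 from 13.9 to 1.04 CPM, and their size is poorly set. Among the genes named here, the smallest adjusted p was that of Xist (difference 1.55, adjusted p = 4.53e-20), whose level was uneven among the WT OIR libraries. None of the 5 neurofilament genes passed that test.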

How the results depend on the processing

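The direction and the call of Nefl, Nefm, Nefh and Ina in the OIR comparisons were the same in all 124 alternative values, from -1.29 to -0.40 on the log2 scale. The highest adjusted p among them was 0.0320, for Ina in WT without WT normoxia replicate 1. The 105 alternative values of the interaction gave 0 calls. The Nefh call between labels in normoxia was lost in 8 of 16 alternatives. The number of neurofilament genes called there was 0 under the replicate block (adjusted p of Nefh 0.0651), with all 12 libraries in 1 fit (0.517) and with the deepest library thinned (0.0962), and ran from 0 to 1 with 1 library left out. Replicate numbers did not pair the libraries (correlations of deviations from -0.066 to 0.233), and the replicate block changed no other neurofilament call.

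Counts of genes called moved more. In WT OIR the 886 became 586 under filterByExpr and 545 to 1130 with 1 library left out. In Casp1 KO OIR the 1038 became 642 with all 12 libraries in 1 fit. Between labels in normoxia the 233 became 444 by the DESeq2 test, 109 in the joint fit and 128 to 199 with 1 library left out. In OIR the 131 became 82 by the DESeq2 test, 16 under filterByExpr, 17 with at least 10 counts, 255 in the joint fit and 47 to 815 with 1 left out, the highest without WT OIR replicate 3. The 277 of the interaction became 139, 152 and 174 to 597 under these filters and omissions. The Nefl share changed by 0.68 percentage points in WT and 1.38 in Casp1 KO, by 2.91 and 4.45 among the triplet alone, and by -0.44 to 1.55 in WT with 1 library left out. Neurofilament reads relative to marker reads changed by -47.5 and -47.3 percentage points without Atp1b1, from 181% to 133% in WT and from 184% to 137% in Casp1 KO. With Atp1b1 they went from 120% to 94.3% and from 127% to 97.7%. Leaving out the most abundant marker shrinks the denominator, so the points without it are on a larger scale. The cause of these shifts was not tested. Prph had only 16 to 92 reads per library, and its libraries also spread within groups.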

Other observations

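Genes of axon injury and regeneration were described as a further list of 15. In WT, 1 was called higher and 1 lower, and in Casp1 KO 3 were higher and 2 lower. Beside these, 1.58% of all genes were called higher and 2.29% lower in WT, and 2.61% and 2.03% in Casp1 KO. Cebpd, an early injury and inflammation factor, rose from 6.52 to 31.2 CPM in WT and from 7.20 to 34.3 CPM in Casp1 KO, log2 fold changes of 2.26 and 2.27 (adjusted p = 1.54e-12 and 6.55e-15 by edgeR). Jun was called in Casp1 KO at 0.60. Atf3, a classic injury gene of ganglion cells, went from 2.91 to 4.55 CPM in WT and from 2.60 to 6.37 CPM in Casp1 KO and was not called. It had only 15 to 30 reads per library in WT OIR and 14 to 38 in Casp1 KO OIR, so a rise was not excluded at this depth. Stmn2, a growth-associated stathmin, fell in both labels, by 0.47 and 0.73 on the log2 scale.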
